A study of Mus musculus with 12 samples.

Results

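The matrix metalloproteinases (MMPs), the ADAMTS proteases and the tissue inhibitors of metalloproteinases (TIMPs) were examined in mouse colon tumours that lacked p53, miR-34a or both in intestinal epithelial cells. The genes were taken by symbol alone, as Mmp, Adamts or Timp followed by a number, and expression played no part in the choice. The deposited table held 43 of them among 21792 genes, namely 20 Mmp genes, 19 Adamts genes and 4 Timp genes. Mmp1a, Mmp21 and Mmp27 were not analysed here.

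MMPs are zinc proteases that are made as inactive zymogens and, once activated, cut collagens, laminin, other proteases and cell surface proteins. ADAMTS proteases cut proteoglycans such as versican, process procollagens, or act on fibrillin and von Willebrand factor. TIMPs bind the active site of MMPs, and Timp3 also inhibits several ADAMTS enzymes. In the intestine, stroma and leukocytes make many of these enzymes, while Mmp7 is a product of epithelial cells. p53 is a transcription factor that activates, among other genes, the gene of the microRNA miR-34a, and miR-34a lowers mRNAs with sites that pair to its seed.

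The groups were double deficient tumours (miR-34a/p53 IEC deficient, where IEC stands for intestinal epithelial cell), p53 deficient tumours (p53 IEC deficient), miR-34a deficient tumours (miR-34a IEC deficient) and wt tumours, with 3 libraries each and 12 in all. Every mouse was of the FvB background and had received azoxymethane (AOM), a colon carcinogen, intraperitoneally at 10 mg/kg each week for 6 weeks. Tumours were taken at the end of the experiment, 16 weeks after the first injection. Not given in the sources used here are the promoter that drove the epithelial deletion, the sex and age of the mice, and whether the 3 libraries of a genotype came from separate mice. The p-values below therefore cover the spread among these libraries only, which may be technical. Total RNA of whole tumours was sequenced, and more cells of a type cannot be told apart from more RNA per cell.

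The values are normalized expression values per gene, rounded to whole numbers by the authors, and the depth of each library is unknown. Differences are given on the scale of log2(value + 1), which understates changes of low genes, with their standard error. A gene counts as changed where the Benjamini-Hochberg adjusted p of limma, over the 21322 genes whose mean value reached 1 or more, was under 0.05. All 43 genes were among those tested. Trp53, the targeted p53 gene, lay at 504 to 924 in double deficient tumours, 401 to 598 in p53 deficient tumours, 3466 to 5120 in miR-34a deficient tumours and 4126 to 4512 in wt tumours. The value of the miR-34a gene was not analysed here. The epithelial marker Epcam lay at 60419 to 144005 in every library, and none of the marker genes in the cell type lists below was at 0 throughout a genotype. p53 deficient 2 stood apart, with a mean log2 level of posterior Hox genes of 8.16 against 11.2 to 14.1 elsewhere. Y-linked genes had a mean log2 level of 0.25 to 0.79 in double deficient tumours and 3.73 to 6.98 in p53 deficient tumours. The miR-34a deficient libraries had 0, 2.77 and 5.28, and the wt libraries 0, 2.84 and 4.35. Double and p53 deficient libraries thus differed completely in the Y-linked level, and that difference cannot be told apart from the difference in genotype.

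8 of the 43 genes are neighbours in one cluster of MMP genes on mouse chromosome 9, which spans 427.1 kb at chr9:7272514-7699585 (GRCm38, GENCODE M21) and holds 10 annotated Mmp genes. Their order along the chromosome is Mmp13, Mmp12, Mmp1b, Mmp3, Mmp10, Mmp8, Mmp20 and Mmp7. This grouping was chosen after the values had been seen. Promoter sequences are shown because all 8 genes had a higher mean log2 level in double deficient than in wt tumours. The libraries of Mmp12 and Mmp1b overlapped between these 2 groups. For Mmp1b the mean levels were 2.92 in double deficient and 2.83 in wt tumours. Each stretch below is the 120 bases before and the first 10 bases after an annotated RefSeq start (GRCm38.p6), written along the gene's strand. Capitals mark a match to TGAGTCA, the consensus of the AP-1 transcription factors (Fos and Jun proteins), on either strand.
Mmp13, chr9:7272394-7272523, plus strand: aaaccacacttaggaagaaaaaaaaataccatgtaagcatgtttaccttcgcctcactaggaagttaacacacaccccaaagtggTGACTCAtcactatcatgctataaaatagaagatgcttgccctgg
Mmp12, chr9:7347254-7347383, plus strand: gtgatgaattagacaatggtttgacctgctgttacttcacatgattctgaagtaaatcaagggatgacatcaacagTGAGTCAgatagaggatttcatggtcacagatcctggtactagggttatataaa
Mmp1b, chr9:7388017-7388146, minus strand: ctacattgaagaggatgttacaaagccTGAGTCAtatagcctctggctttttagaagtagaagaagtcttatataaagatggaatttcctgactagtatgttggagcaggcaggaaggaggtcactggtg
Mmp3, chr9:7445702-7445831, plus strand: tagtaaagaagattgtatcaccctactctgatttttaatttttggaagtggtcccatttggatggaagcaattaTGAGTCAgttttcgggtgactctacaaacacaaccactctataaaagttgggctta
Mmp10, chr9:7502222-7502351, plus strand: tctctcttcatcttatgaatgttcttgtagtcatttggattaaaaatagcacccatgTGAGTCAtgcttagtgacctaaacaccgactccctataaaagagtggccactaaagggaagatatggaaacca
Mmp8, chr9:7558309-7558438, plus strand: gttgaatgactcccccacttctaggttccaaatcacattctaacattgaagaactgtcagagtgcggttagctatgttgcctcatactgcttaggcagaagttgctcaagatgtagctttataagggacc
Mmp7, chr9:7691970-7692099, plus strand: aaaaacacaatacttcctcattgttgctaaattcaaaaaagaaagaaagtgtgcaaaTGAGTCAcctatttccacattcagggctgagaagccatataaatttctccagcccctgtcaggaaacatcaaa

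The AP-1 match begins 35 bases before the start in Mmp13, 46 bases in Mmp3, 44 bases in Mmp12, 63 bases in both Mmp10 and Mmp7, and 93 bases in Mmp1b. Windows of 300 bases, with 250 before and 50 after the start, were on hand for 29 of the 43 genes. TGAGTCA occurred in the windows of 6 of the 8 cluster genes and in 0 of the 21 other members with a window. Mmp8 and Mmp20 were the cluster genes without it, and the stretch of Mmp20 is not printed. Whether the match bears on the values was not tested. Of 27025 genes with a window, 1607 (5.95%) held it. The letters TATAAA, also searched on both strands, were found in windows of all 8 cluster genes and of 1 of the 21 others, Adamts1. They were found in 4234 (15.7%) of all genes with a window. Mmp12 and Mmp7 each had a second annotated start whose window held no TGAGTCA. A match is a description of letters, not a measured binding site, and binding was not measured in these tumours.

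Sites for miR-34a are shown because the miRNA was deleted in 2 of the genotypes. The mature strand, mmu-miR-34a-5p, comes from chr4:150068473-150068494 on the plus strand (RefSeq, GRCm38.p6), with its seed in capitals. Each site lies in the gene's longest annotated 3′ UTR, with the letters that pair to the seed in capitals and the flanking bases in lower case.
mmu-miR-34a-5p: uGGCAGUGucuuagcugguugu
Adamts15: gaagatcatgCACTGCCctagggacct
Adamts17: ttgtgctaaaCACTGCCccccagctca
Adamts4: ctgcctgcctCACTGCCccaaaccgca
Mmp17: aagtctgatcCACTGCCgtttgcagca
Mmp25: ccttcataatCACTGCCacagggtagg

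CACTGCC occurred in 7 of the 43 genes (16.3%), against 2520 of 15884 tested genes with an annotated 3′ UTR (15.9%). The other 2 genes with a site were Mmp15 and Mmp24, and Mmp25 carried a pair of sites, each followed by an A. In miR-34a deficient tumours 3 of the 7 genes with a site (Adamts17, Adamts4 and Mmp25) lay above wt and 4 (Adamts15, Mmp15, Mmp17 and Mmp24) below, with a median difference of -0.19. Of the 36 genes without a site, 30 lay above wt, with a median of 0.31. None of these differences passed the adjusted threshold.

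Only 1 of the 43 genes changed in any of the 8 comparisons. Adamts17, a protease linked to fibrillin microfibrils, fell with p53 loss when both p53-lacking genotypes were set against the other two. In double deficient tumours Mmp7 and Mmp8 lay above, and Adamts15 below, every other library, while none of the 3 passed the adjusted threshold. The TIMPs and the gelatinases Mmp2 and Mmp9 overlapped between double deficient and wt tumours.

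In double deficient against wt tumours, 0 of 43 genes changed by limma, with 0.267% of all genes tested changed. At an unadjusted p under 0.05 the counts were 9 of 43 (20.9%) against 12.5% of all genes tested. Of the 43, 26 lay above wt, and the median difference was 0.09 against 0.02 over all genes. In p53 deficient against wt tumours, 0 members changed (0.00938% of all genes) and 3 (6.98%) were under the unadjusted threshold, against 12.4% of all genes. In miR-34a deficient against wt tumours, 0 changed (0.0234% of all genes) and 2 (4.65%) were under it, against 4.59%. Members under the unadjusted threshold were thus a larger share than the background in double deficient tumours, a smaller one in p53 deficient tumours and about the same in miR-34a deficient tumours. These counts moved when single libraries were left out. The share of all genes under the unadjusted threshold is not given for such fits, here or below. The shifts therefore cannot be called particular to the members. The 9 in double deficient tumours became 5 without wt 1, and the 2 in miR-34a deficient tumours became 7 without wt 2. The 3 in p53 deficient tumours became 6 without wt 2 and 5 without p53 deficient 1, p53 deficient 2 or double deficient 1.

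Double deficient against p53 deficient tumours gave 0 changed members (0.22% of all genes) and 7 (16.3%) at an unadjusted p under 0.05, against 12.4% of all genes. The 7 became 14 without p53 deficient 1 and 4 without p53 deficient 2. Over all genes, the number changed by the adjusted threshold moved as well, from 47 to 294 and to 21 in these 2 fits. The median of the 43 was 0.47 here, against 0.05 over all genes, with 31 above 0. Double deficient against miR-34a deficient tumours gave 0 changed members (0.267% of all genes) and 4 (9.3%) under it, against 15%, and the 4 became 7 without wt 1 and 8 without double deficient 1. The median of the 43 was -0.26 in that comparison, against -0.06 over all genes, with 17 above 0. Both of these comparisons, and the 3 against wt, share libraries, so their differences are not independent of each other.

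Loss of p53 pooled over miR-34a status, the mean of double and p53 deficient tumours minus the mean of miR-34a deficient and wt tumours, changed 1 member (1.51% of all genes). It had 8 (18.6%) under the unadjusted threshold, against 20.3% of all genes, and 5 without miR-34a deficient 1. Over all genes, the number changed by the adjusted threshold fell from 321 to 54 without that library. Loss of miR-34a pooled over p53 status changed 0 members (0.145% of all genes) and had 8 (18.6%) under it, against 11.1%. Those 8 became 17 without p53 deficient 1, 15 without wt 2, 14 without double deficient 3 and 5 without p53 deficient 2. The median of the 43 for miR-34a loss was 0.52, with 32 above 0, while the median of all genes was 0.04. The interaction of the 2 deletions, tested as such, changed 0 members (0.00938% of all genes) and had 1 (2.33%) under the unadjusted threshold, against 5.96%, with 1 to 4 when 1 library was left out (4 without wt 1).

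**Figure D1:**
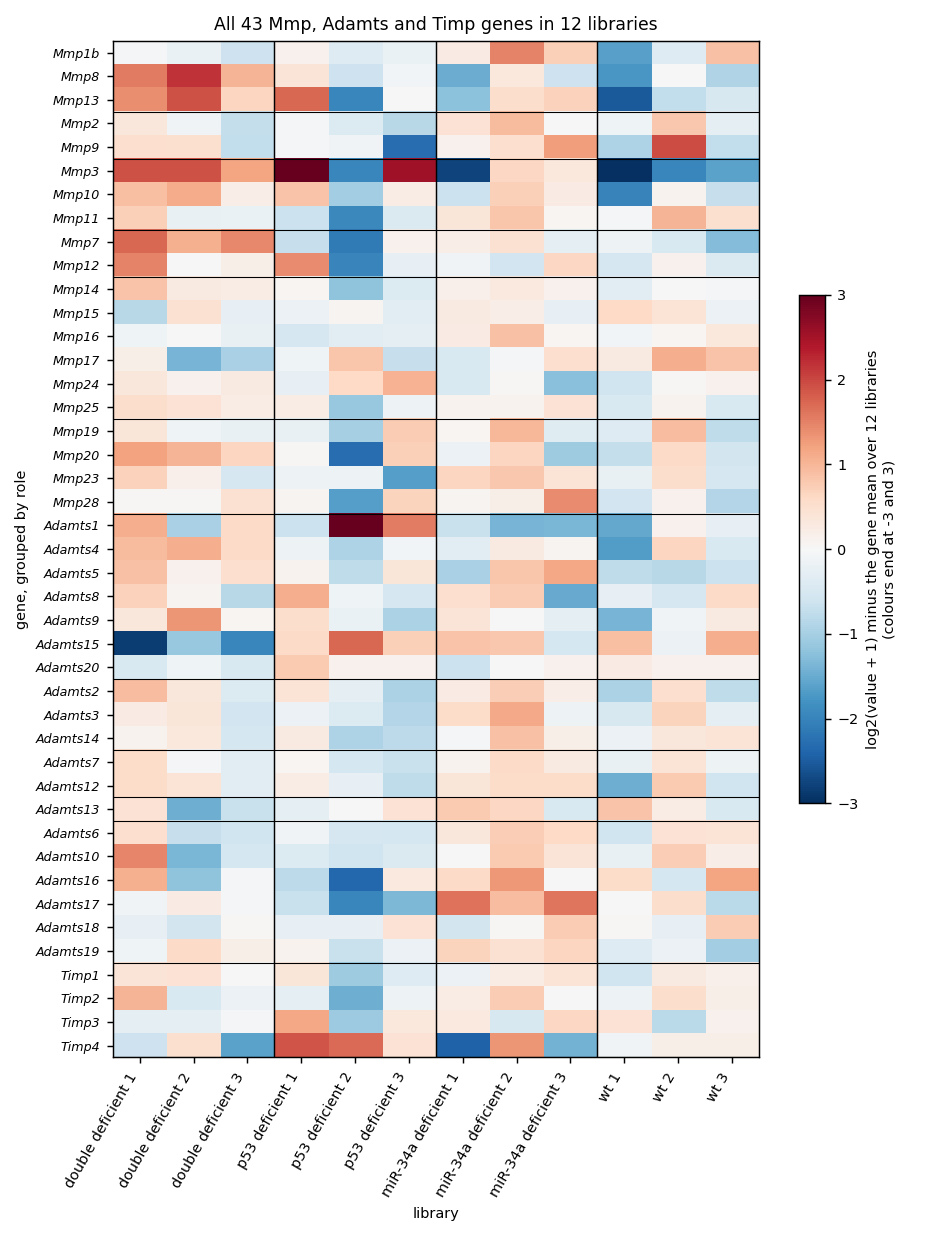
Heat map of the 43 genes in rows, grouped by role, and the 12 libraries in columns, with colour giving log2(value + 1) minus the gene's mean over the libraries (colours end at -3 and 3). Mmp7 and Mmp8 are at their highest and Adamts15 at its lowest in the double deficient columns, and Adamts17 is at its highest in the miR-34a deficient columns.

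A gene was also set apart where all 3 libraries of a genotype lay beyond the other 9. In double deficient tumours these were Mmp7 and Mmp8 above and Adamts15 below, 3 of 43 (6.98%), against 3.95% of all genes tested. In p53 deficient tumours they were Mmp11 and Mmp16, both below, 2 of 43 (4.65%) against 4.11%. In miR-34a deficient tumours Adamts17 alone lay above, 1 of 43 (2.33%) against 2.82%. In wt tumours there were 0 against 0.647%. In the 2 single deficient genotypes and in wt the share of members was close to the background.

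Single libraries carried much of the variation. miR-34a deficient 2 was the highest of the 12 libraries in 10 of the 43 genes and double deficient 1 in 8. p53 deficient 2 was the lowest in 14 genes and wt 1 in 10.

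The collagenases open the triple helix of fibrillar collagen. Mmp8, the collagenase best known from neutrophil granules, had values of 49, 75 and 33 in double deficient tumours, 21, 10 and 15 in p53 deficient tumours, 5, 20 and 10 in miR-34a deficient tumours and 4, 16 and 8 in wt tumours. Every double deficient library was above every other library. Its difference from wt was 2.47 ± 0.61 (SE), or 5.53-fold, with a limma adjusted p of 0.154. With a pseudocount of 16 the same difference was 1.41. It was 1.69 ± 0.61 against p53 deficient and 2.18 ± 0.61 against miR-34a deficient tumours, with limma adjusted p of 0.308 and 0.165. Neutrophil markers were set beside Mmp8. Of 8 measured (of 9 listed), 7 lay above wt in double deficient tumours, with a median difference of 2.42. Ly6g, described below, was the marker below wt. In either direction, 7 were at an unadjusted limma p under 0.05. 7 of 8 lay above p53 deficient tumours (median 0.81) and 6 of 8 above miR-34a deficient tumours (median 1.24). By the adjusted threshold 0 markers rose and 1, Ly6g, fell against p53 deficient tumours, while 2 rose with pooled p53 loss. The mean log2 level of the markers was 6.30 to 6.75 in double deficient, 4.15 to 6.57 in p53 deficient, 4.28 to 5.53 in miR-34a deficient and 3.57 to 4.97 in wt tumours. p53 deficient 1 and 3, at 6.57 and 6.31, were as high as double deficient 3 at 6.30 in this mean, which includes Ly6g. Without Ly6g the marker sums were 1369 in p53 deficient 1, 658 in p53 deficient 3 and 715 in double deficient 3. The Mmp8 values of p53 deficient 1 and 3 were 21 and 15, against 33 in double deficient 3. The part of neutrophils in the Mmp8 values was not tested.

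S100a9, a calprotectin subunit abundant in neutrophils, was at 487, 518 and 448 in double deficient, 684, 24 and 356 in p53 deficient, 35, 171 and 1063 in miR-34a deficient and 22, 93 and 26 in wt tumours. Retnlg, a resistin-like protein of mouse neutrophils, was at 86, 73 and 32 in double deficient, 28, 0 and 18 in p53 deficient, 0, 4 and 0 in miR-34a deficient and 0, 1 and 0 in wt tumours. Ly6g, a surface antigen of mouse neutrophils, had its lowest values in double deficient tumours, at 1407, 2469 and 1853 in double deficient, 7051, 13517 and 10509 in p53 deficient, 4410, 7457 and 5208 in miR-34a deficient and 4555, 7234 and 4635 in wt tumours. Ly6g made up 91% of the summed neutrophil markers, and carried that sum. The sum was 2315 to 3469 in double deficient, 8420 to 13594 in p53 deficient, 4532 to 7842 in miR-34a deficient and 4621 to 7457 in wt tumours. Without Ly6g it was 715 to 1000 in double deficient, 77 to 1369 in p53 deficient, 122 to 1326 in miR-34a deficient and 66 to 223 in wt tumours.

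Mmp13, collagenase 3, was at 5583, 8043 and 3346 in double deficient tumours, at 7050, 550 and 2148 in p53 deficient tumours, at 913, 3101 and 3435 in miR-34a deficient tumours and at 372, 1286 and 1540 in wt tumours. The double deficient libraries all exceeded the wt libraries and overlapped the other genotypes. Against wt the difference was 2.56 ± 0.89, 5.88-fold, with a limma adjusted p of 0.278. Mmp1b, a rodent relative of human MMP1, had low values of 8, 7 and 5 in double deficient, 9, 6 and 7 in p53 deficient, 10, 25 and 14 in miR-34a deficient and 2, 6 and 16 in wt tumours. Its difference of miR-34a deficient from wt tumours, 1.20 ± 0.62, had a limma adjusted p of 0.999 and was 0.57 without wt 1, 1.83 without wt 3 and 0.45 with a pseudocount of 16. Mmp1b overlaps Mmp12 by 1260 bases on the opposite strand and has a near copy in Mmp1a, so its reads and theirs may be mixed.

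The stromelysins cut proteoglycans, laminin and other MMP zymogens. Mmp3, stromelysin 1, was at 101, 102 and 61 in double deficient tumours, at 221, 6 and 158 in p53 deficient tumours, at 3, 41 and 33 in miR-34a deficient tumours and at 2, 6 and 8 in wt tumours. The double deficient libraries were all above the wt and miR-34a deficient ones, and p53 deficient 2 was as low as wt. Among the 43 genes, Mmp3 had the largest fitted difference from wt in double deficient tumours, 3.92 ± 1.27 (15.1-fold, limma adjusted p 0.251), and 2.27 with a pseudocount of 16. In p53 deficient tumours it was 3.45 ± 1.27 (limma adjusted p 0.323), 2.19 with that pseudocount and 2.29 in a fit that took the Y-linked level into account. Pooled p53 loss gave 2.86 ± 0.90 for Mmp3 with a limma adjusted p of 0.116. The pooled value was 1.87 without the 2 libraries of the second run code and 1.82 with a pseudocount of 16. Without p53 deficient 2 it was 3.66 and passed, with a limma adjusted p of 0.0452.

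Mmp10, stromelysin 2, stood at 6854, 7841 and 4183 in double deficient tumours, at 6569, 1776 and 4288 in p53 deficient tumours, at 2326, 6036 and 4352 in miR-34a deficient tumours and at 915, 3910 and 2264 in wt tumours. The 3 double deficient libraries lay above the 3 wt libraries. The difference was 1.60 ± 0.60, 3.03-fold, with a limma adjusted p of 0.309, and it was 1.03 without wt 1.

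Mmp11, a stromelysin by name that is made mainly by fibroblasts of tumour stroma, took another course. It was at 394, 208 and 210 in double deficient tumours, at 155, 62 and 177 in p53 deficient tumours, at 308, 431 and 253 in miR-34a deficient tumours and at 233, 492 and 339 in wt tumours. Every p53 deficient library lay below the other 9. The difference from wt was -1.50 ± 0.46 with a limma adjusted p of 0.269. Double deficient tumours exceeded p53 deficient tumours by 1.11 ± 0.46 (limma adjusted p 0.361), and by 0.64 without p53 deficient 2. The sum of 10 fibroblast markers (of 10) was 17038 to 39627 in double deficient, 10687 to 27044 in p53 deficient, 30046 to 44872 in miR-34a deficient and 17182 to 41617 in wt tumours, and 3 of the 10 lay above wt in p53 deficient tumours (median -0.25). The part of these cells in the Mmp11 values was not tested.

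Mmp7, matrilysin, is the epithelial member and cuts E-cadherin, Fas ligand and, in mouse Paneth cells, defensin precursors. Its values were 15297, 9651 and 12530 in double deficient tumours, 2863, 1061 and 5064 in p53 deficient tumours, 5333, 6373 and 3751 in miR-34a deficient tumours and 4192, 3365 and 1893 in wt tumours. The lowest double deficient library lay above the highest of the other 9. Against wt the difference was 2.04 ± 0.50, 4.11-fold, with a 95% interval of 0.92 to 3.15 and a limma adjusted p of 0.149. It was 2.30 ± 0.50 against p53 deficient tumours (limma adjusted p 0.122) and 1.29 ± 0.50 against miR-34a deficient tumours (limma adjusted p 0.272). Against p53 deficient tumours Mmp7 passed without p53 deficient 3, with a difference of 2.82 and a limma adjusted p of 0.0399. That fit also lacked the covariate described under data processing.

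Paneth cells, the epithelial cells that secrete defensins, are a source of Mmp7 in mice. The sum of their markers over 16 genes (of 16), a list added after the values had been seen, was 10637 to 50864 in double deficient, 10711 to 61996 in p53 deficient, 51382 to 127244 in miR-34a deficient and 9765 to 52535 in wt tumours. Without the largest marker, Pnliprp2, it was 10355 to 45647 in double deficient, 10131 to 61809 in p53 deficient, 30068 to 117978 in miR-34a deficient and 9144 to 44629 in wt tumours. Double deficient and wt tumours overlapped in the sum, and 12 of the 16 markers lay above wt in double deficient tumours, with a median difference of 0.54. In double against miR-34a deficient tumours 3 of the 16 lay above 0 (median -0.81). In miR-34a deficient against wt tumours it was 14 of the 16 (median 1.24). The part of these cells in the Mmp7 values was not tested. The sum of 8 epithelial markers (of 8) was 532282 to 578726 in double deficient, 603098 to 807333 in p53 deficient, 451486 to 547937 in miR-34a deficient and 521024 to 759973 in wt tumours, and 1 of the 8 lay above wt in double deficient tumours (median -0.17).

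**Figure D2:**
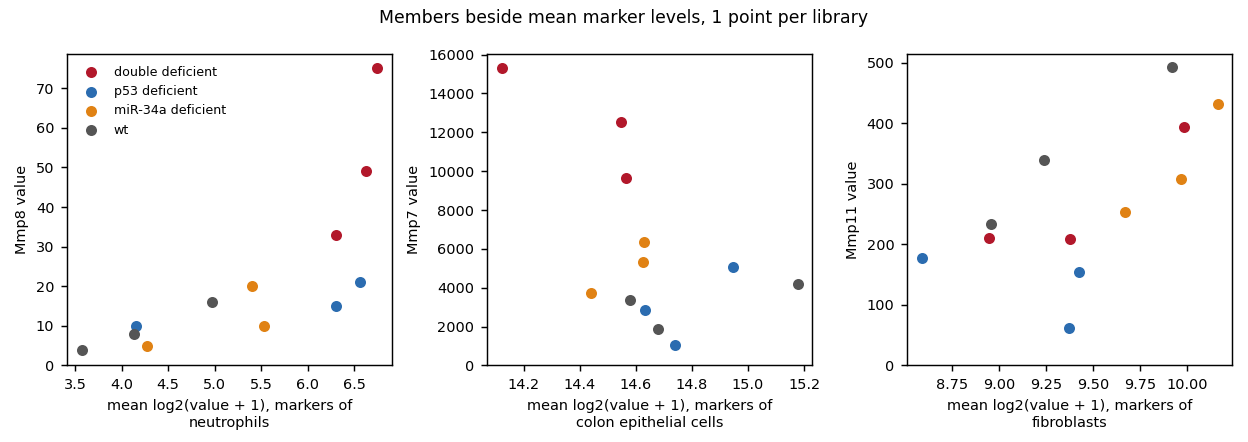
Value of Mmp8 against the mean log2(value + 1) of neutrophil markers, of Mmp7 against that of colon epithelial markers and of Mmp11 against that of fibroblast markers, with 1 point per library coloured as double deficient, p53 deficient, miR-34a deficient or wt. In the double deficient points the highest Mmp8 values, 33 to 75, stand at mean neutrophil marker levels of 6.30 to 6.75, against 3.57 to 4.97 in wt. The p53 deficient points, with Mmp8 at 21, 10 and 15, stand at levels of 4.15 to 6.57. The neutrophil mean includes Ly6g, whose lowest values were in double deficient tumours.

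Mmp12, macrophage elastase, had values of 1879, 675 and 761 in double deficient, 1787, 170 and 564 in p53 deficient, 619, 449 and 1037 in miR-34a deficient and 469, 737 and 500 in wt tumours. The groups overlapped, and double deficient tumours differed from wt by 0.83 ± 0.73 (limma adjusted p 0.702). Macrophage markers, 9 of 9 in the table, summed to 7154 to 10684 in double deficient, 5859 to 7642 in p53 deficient, 6553 to 8917 in miR-34a deficient and 6232 to 7887 in wt tumours. Cd14 made up 47.6% of the summed macrophage markers. Without Cd14 the sum was 2870 to 5809 in double deficient, 2953 to 3110 in p53 deficient, 3914 to 5435 in miR-34a deficient and 2924 to 5080 in wt tumours. In p53 deficient tumours 3 of 9 macrophage markers lay above wt (median -0.67). T cell markers (7 of 7) were low throughout, at 177 to 330 in double deficient, 104 to 185 in p53 deficient, 175 to 301 in miR-34a deficient and 142 to 166 in wt tumours. Lck made up 63.2% of the summed T cell markers. Without Lck the sum was 55 to 107 in double deficient, 28 to 108 in p53 deficient, 75 to 80 in miR-34a deficient and 35 to 87 in wt tumours. Endothelial markers (8 of 8) summed to 1770 to 3293 in double deficient, 990 to 1693 in p53 deficient, 1669 to 2216 in miR-34a deficient and 809 to 1770 in wt tumours. In double deficient tumours 8 of 8 endothelial markers (median 0.99), 5 of 7 T cell markers (median 0.67) and 4 of 9 macrophage markers lay above wt. In miR-34a deficient tumours 8 of 8 (median 0.93), 7 of 7 (median 0.58) and 7 of 9 (median 0.17) did so. The part of these cells in the protease values was not tested.

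Mmp20, the enamel protease, had 33, 29 and 22 in double deficient, 14, 2 and 23 in p53 deficient, 12, 22 and 6 in miR-34a deficient and 8, 21 and 9 in wt tumours. All 8 genes of the chromosome 9 cluster had a higher mean log2 level in double deficient than in wt tumours, with a median difference of 1.82. The other 35 members had 18 above wt and a median of 0.04. In p53 deficient tumours 5 of the 8 lay above wt (median 0.50), against 14 of the other 35 (median -0.19). In miR-34a deficient tumours all 8 lay above wt (median 0.86), against 25 of 35 (median 0.29). These are counts of mean differences and carry no test, and no gene of the cluster changed by the adjusted threshold. Adamts15 and Adamts8, which neighbour each other elsewhere on the same chromosome, are not part of the cluster.

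**Figure D3:**
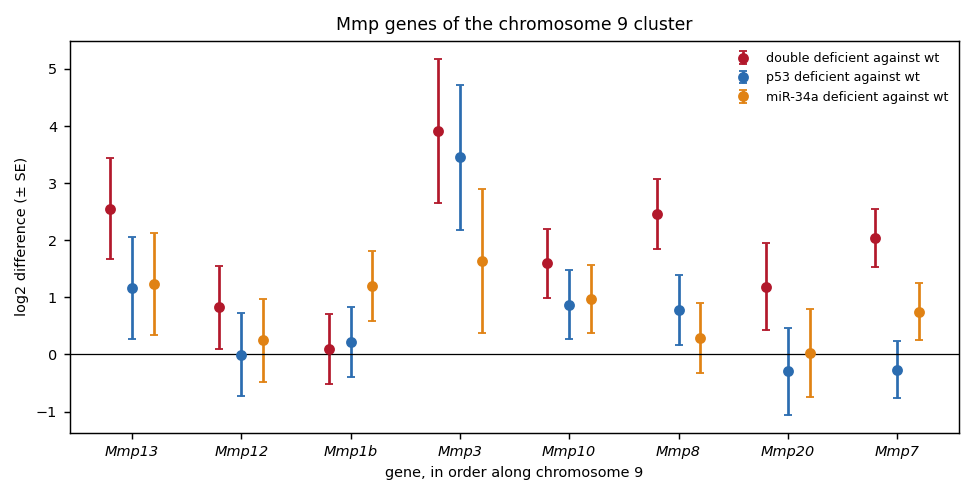
Difference from wt on the log2(value + 1) scale, with bars of 1 standard error, for the 8 genes of the chromosome 9 MMP cluster in their chromosomal order, for double deficient, p53 deficient and miR-34a deficient tumours. All double deficient points lie above 0, with Mmp3 the highest at 3.92, and in p53 deficient tumours Mmp12, Mmp20 and Mmp7 lie below 0.

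Among the gelatinases, Mmp2 is a product of stromal cells and Mmp9 of leukocytes. Mmp2 had values of 1447, 1058 and 693 in double deficient tumours, 1102, 861 and 642 in p53 deficient tumours, 1544, 2197 and 1147 in miR-34a deficient tumours and 1053, 2015 and 954 in wt tumours. Double deficient tumours differed from wt by -0.31 ± 0.38 (limma adjusted p 0.798), and pooled p53 loss gave -0.60 ± 0.27 (limma adjusted p 0.24). Mmp9 was at 1472, 1439 and 614 in double deficient tumours, at 1006, 965 and 212 in p53 deficient tumours, at 1122, 1473 and 2456 in miR-34a deficient tumours and at 540, 4040 and 615 in wt tumours. wt 2 held the highest value, above all the others. The difference of double deficient from wt tumours was -0.02 with a 95% interval of -1.82 to 1.79, which leaves room for changes of several fold in either direction.

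The 6 membrane-bound MMPs had a median difference of 0.09 between double deficient and wt tumours, with 3 above 0. Mmp14, which activates the Mmp2 zymogen at the cell surface, was at 18647, 12258 and 11885 in double deficient tumours, at 10657, 4446 and 7762 in p53 deficient tumours, at 11415, 12538 and 11248 in miR-34a deficient tumours and at 8228, 10116 and 9948 in wt tumours. All double deficient values exceeded all wt and all p53 deficient values, and all miR-34a deficient values exceeded all wt values. Double deficient tumours exceeded p53 deficient tumours by 0.96 ± 0.29 (limma adjusted p 0.225). That difference was 0.62 without p53 deficient 2, and without p53 deficient 1 it was 1.25 and passed, with a limma adjusted p of 0.0430. The fit without p53 deficient 1 also lacked the covariate described under data processing. Against wt the difference of double deficient tumours was 0.57 ± 0.29 (limma adjusted p 0.455), and pooled miR-34a loss gave 0.64 ± 0.20 (limma adjusted p 0.307).

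Mmp17, a membrane-anchored MMP with a miR-34a seed match, differed by -1.47 ± 0.54 between double deficient and wt tumours (limma adjusted p 0.298). Its values were 50, 16 and 22 in double deficient, 40, 79 and 27 in p53 deficient, 32, 42 and 63 in miR-34a deficient and 53, 95 and 80 in wt tumours. Mmp15 was lowest in double deficient 1, at 5917, and highest in wt 1, at 15775. Mmp16 had 22, 25 and 26 in p53 deficient tumours, below the range of 27 to 59 of the other 9 libraries. Mmp24 and Mmp25 had values of 4 to 33. Of the other MMPs in the table (Mmp19, Mmp20, Mmp23 and Mmp28), all 4 averaged above wt in double deficient tumours, with a median of 0.39, and 0 changed.

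**Figure D4:**
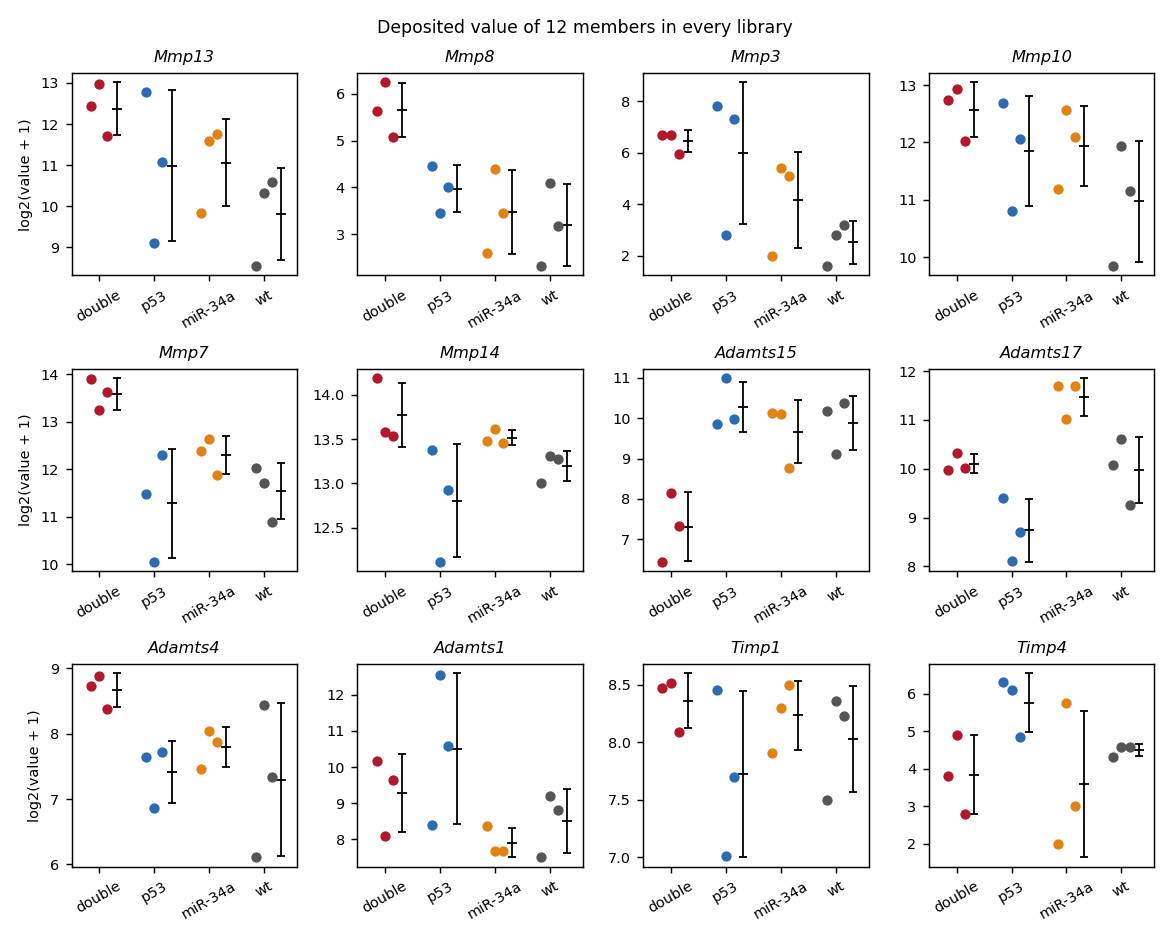
Level of 12 of the genes as log2(value + 1), each on its own axis, with 1 point per library for double deficient, p53 deficient, miR-34a deficient and wt tumours and the mean and SD of the 3 libraries beside them. Mmp7 and Mmp8 in double deficient tumours lie above, and Adamts15 below, all other libraries.

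Of the 7 ADAMTS proteases that cut proteoglycans, 5 averaged above wt in double deficient tumours, and the median difference was 0.78. Adamts15, which cuts versican and aggrecan, lay the other way. It was at 86, 283 and 160 in double deficient tumours, at 926, 2044 and 1017 in p53 deficient tumours, at 1122, 1096 and 434 in miR-34a deficient tumours and at 1157, 553 and 1319 in wt tumours. The highest double deficient library was below the lowest of the other 9. The difference was -2.58 ± 0.55 against wt (5.97-fold lower, limma adjusted p 0.0981), -2.97 ± 0.55 against p53 deficient (7.86-fold lower, limma adjusted p 0.0733) and -2.36 ± 0.55 against miR-34a deficient tumours (limma adjusted p 0.121). In the simpler limma fit with 8 residual degrees of freedom in place of 7 the first 2 of these adjusted p were 0.0496 and 0.0330, with the differences themselves unaltered. Leaving out wt 2, miR-34a deficient 3 or double deficient 2 also brought the difference from wt under the threshold, with limma adjusted p of 0.0473, 0.0384 and 0.0370. The difference from p53 deficient tumours passed without double deficient 2, p53 deficient 1, either of miR-34a deficient 2 and 3, or wt 2, with limma adjusted p between 0.0250 and 0.0465. The difference from miR-34a deficient tumours passed without double deficient 2, with a limma adjusted p of 0.0475. Each of these leave-out fits, like the simpler fit, lacked the covariate described under data processing.

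Adamts15 was also the sole member under an unadjusted p of 0.05 for the interaction, at -2.75 ± 0.77 with an unadjusted limma p of 0.00471 and an adjusted p of 0.729. In single deficient tumours its values overlapped those of wt. The gene lies at chr9:30899155-30922452 on the minus strand and carries the miR-34a seed match shown above. Its difference between miR-34a deficient and wt tumours was -0.22 ± 0.55. With the Y-linked level in the fit, the differences of double deficient tumours were -2.81 from wt and -3.55 from p53 deficient tumours, and the limma adjusted p were 0.148 and 0.660.

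Adamts4, an aggrecanase and versicanase, was at 425, 470 and 331 in double deficient tumours, at 199, 116 and 210 in p53 deficient tumours, at 175, 264 and 234 in miR-34a deficient tumours and at 68, 347 and 161 in wt tumours. wt 2 alone of the other 9 libraries reached into the double deficient range. The difference from wt was 1.37 ± 0.51 (limma adjusted p 0.305), and 0.77 without wt 1. The difference from p53 deficient tumours was 1.25 ± 0.51 (limma adjusted p 0.355), and 2.04 with the Y-linked level in the fit.

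Adamts5, the other main aggrecanase, had 68, 40 and 52 in double deficient tumours, 39, 21 and 47 in p53 deficient tumours, 18, 65 and 83 in miR-34a deficient tumours and 21, 20 and 23 in wt tumours. All double deficient libraries were above all wt libraries, by 1.25 ± 0.56 (limma adjusted p 0.394). Adamts1, which also cuts versican, had 1140, 271 and 792 in double deficient tumours, 337, 5994 and 1532 in p53 deficient tumours, 332, 202 and 205 in miR-34a deficient tumours and 183, 584 and 449 in wt tumours. p53 deficient 2 was the highest by far, and the difference of double deficient from wt tumours was 0.78 ± 0.91 (limma adjusted p 0.786). Pooled p53 loss gave 1.69 ± 0.65 (limma adjusted p 0.177), and without p53 deficient 1 it gave 2.22 with a limma adjusted p of 0.0285. The latter fit lacked the covariate described under data processing. Of the remaining 3 proteoglycan-cutting genes, Adamts9 differed by 0.99, Adamts8 by 0.04 and Adamts20 by -0.52 between double deficient and wt tumours, and 0 of them passed.

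Adamts17 was the member that changed. Its values were 1006, 1282 and 1035 in double deficient tumours, 672, 275 and 419 in p53 deficient tumours, 3326, 2061 and 3288 in miR-34a deficient tumours and 1077, 1555 and 613 in wt tumours. The miR-34a deficient libraries stood above all the others, the double deficient libraries lay within the wt range, and 1 of the p53 deficient libraries reached into it. With pooled p53 loss Adamts17 fell by 1.30 ± 0.28 on the log2 scale, 2.46-fold, with a 95% interval of -1.91 to -0.69 and a limma adjusted p of 0.0495. It passed in 11 of 24 alternatives, over which the adjusted p ran between 0.0151 and 0.105, so the call stands at the edge of the threshold. It was lost, among other settings, with each rescaling and without wt 1, miR-34a deficient 1, p53 deficient 2, p53 deficient 3 or double deficient 3, one at a time. Of the fits in which Adamts17 passed, the simpler limma fit lacked the covariate described under data processing. So did those without wt 2, miR-34a deficient 2 or 3, p53 deficient 1, or double deficient 1 or 2.

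The opposite sign was seen for miR-34a. Pooled miR-34a loss gave 1.43 ± 0.28 for Adamts17 with a limma adjusted p of 0.104, which passed without wt 2 (1.58, adjusted p 0.0323) or without p53 deficient 1 (1.59, adjusted p 0.0204). Neither leave-out fit held the covariate described under data processing. Separately, miR-34a deficient tumours differed from wt by 1.48 ± 0.39 (limma adjusted p 0.765) and p53 deficient tumours by -1.24 ± 0.39 (limma adjusted p 0.274). Double deficient tumours differed from wt by 0.13 ± 0.39. The interaction was -0.12 ± 0.55 with a limma adjusted p of 0.994. Adamts17 lies at chr7:66839735-67153171 on the plus strand.

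Adamts19 was at 31, 51 and 39 in double deficient, 37, 21 and 30 in p53 deficient, 55, 47 and 54 in miR-34a deficient and 26, 30 and 16 in wt tumours. Its difference between miR-34a deficient and wt tumours was 1.13 ± 0.38 with a limma adjusted p of 0.999, although all 3 libraries were above all wt libraries. Adamts6, Adamts10, Adamts16, Adamts17, Adamts18 and Adamts19, the 6 ADAMTS genes outside the substrate groups, were all below 0 for pooled p53 loss, with a median of -0.63 against -0.09 over the 43. The 3 that process procollagen (Adamts2, Adamts3 and Adamts14) were all above 0 for pooled miR-34a loss, with a median of 0.52, which equals the median of the 43. The 2 that cut cartilage oligomeric matrix protein, Adamts7 and Adamts12, averaged above wt in double deficient tumours (median 0.34), and 0 changed. Adamts13, which cuts von Willebrand factor, had values of 3 to 19.

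The TIMPs as a group lay near wt. In double deficient against wt tumours 1 of 4 was above 0 and the median was -0.08, and 0 of 4 changed in any comparison. Timp1, which inhibits most secreted MMPs, was at 355, 366 and 271 in double deficient tumours, at 350, 128 and 207 in p53 deficient tumours, at 239, 314 and 360 in miR-34a deficient tumours and at 180, 327 and 299 in wt tumours. The groups overlapped, and double deficient tumours differed from wt by 0.33 with a 95% interval of -0.51 to 1.17.

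Timp2, which both inhibits MMPs and bridges Mmp14 to the Mmp2 zymogen, was at 5356, 1916 and 2320 in double deficient tumours, at 2166, 959 and 2364 in p53 deficient tumours, at 3067, 4465 and 2601 in miR-34a deficient tumours and at 2354, 3785 and 2994 in wt tumours. Double deficient tumours differed from wt by -0.05 (95% interval -1.02 to 0.91). p53 deficient tumours differed from wt by -0.81 ± 0.44, with a limma adjusted p of 0.478.

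Timp3, which is held in the matrix, was at 763, 762 and 893 in double deficient tumours, at 2056, 431 and 1143 in p53 deficient tumours, at 1130, 660 and 1421 in miR-34a deficient tumours and at 1237, 526 and 997 in wt tumours. The double deficient libraries lay close together within the range of wt, with a difference of -0.11 ± 0.53. Timp4 had low and scattered values of 13, 29 and 6 in double deficient tumours, 78, 68 and 28 in p53 deficient tumours, 3, 53 and 7 in miR-34a deficient tumours and 19, 23 and 23 in wt tumours. All p53 deficient libraries were above all wt libraries, by 1.26 ± 0.89 with a limma adjusted p of 0.593. Pooled miR-34a loss gave -1.41 ± 0.63 for Timp4 (limma adjusted p 0.441), and -0.88 without the libraries of the second run code. The intervals of the TIMPs between double deficient and wt tumours leave room for changes of 2-fold or more.

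Genes around the proteases were read from lists of zymogen activators, receptors, other inhibitors, ADAMTS-like proteins, ADAM sheddases, astacin proteases, cathepsins, substrates and AP-1 or ETS factors, of which 70 were tested. 2 of the 70 rose with pooled p53 loss and 0 fell, where 1.51% of all genes tested changed. In the other 7 comparisons 0 rose and 0 fell. Cd44, a hyaluronan receptor that docks MMPs at the cell surface, was at 22178, 24535 and 20514 in double deficient, 24074, 20080 and 23788 in p53 deficient, 14882, 19911 and 13667 in miR-34a deficient and 14406, 14800 and 14789 in wt tumours. All 6 libraries lacking p53 were above the other 6. Cd44 rose by 0.55 ± 0.11 with p53 loss (limma adjusted p 0.0470).

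Etv4, an ETS transcription factor, was at 3907, 2584 and 3169 in double deficient, 1655, 2203 and 3258 in p53 deficient, 943, 1284 and 674 in miR-34a deficient and 1392, 1837 and 2278 in wt tumours. It rose by 1.05 ± 0.22 with p53 loss (limma adjusted p 0.0492), although p53 deficient and wt tumours overlapped. Cd44 and Etv4 each passed in 14 of 24 alternatives, with adjusted p of up to 0.101. The simpler limma fit, among these, lacked the covariate described under data processing. So did every passing fit with 1 library left out.

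At an unadjusted p under 0.05 stood 18 of the 70 (25.7%, against 12.5% of all genes tested) in double deficient, 8 (11.4%, against 12.4%) in p53 deficient and 6 (8.57%, against 4.59%) in miR-34a deficient tumours against wt. Double against p53 deficient tumours had 17 (24.3%, against 12.4%) and double against miR-34a deficient tumours 15 (21.4%, against 15%). Pooled p53 loss had 17 (24.3%, against 20.3%), pooled miR-34a loss 19 (27.1%, against 11.1%) and the interaction 5 (7.14%, against 5.96%). The shares for p53 deficient tumours against wt, pooled p53 loss and the interaction were thus near the background. Meprin Mep1b, an astacin protease of the epithelial brush border, had values of 99, 252 and 208 in double deficient, 407, 1373 and 484 in p53 deficient, 501, 610 and 614 in miR-34a deficient and 1366, 646 and 895 in wt tumours. All double deficient libraries lay below all others, and the difference from wt was -2.41 ± 0.49 (limma adjusted p 0.0869).

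In double against p53 deficient tumours the smallest p belonged to cathepsin Ctsl (1.28 ± 0.30, limma adjusted p 0.148) and fibronectin Fn1 (1.75 ± 0.43, limma adjusted p 0.164). For miR-34a loss they belonged to Etv5 (1.67 ± 0.38, limma adjusted p 0.159) and Tfpi2 (2.13 ± 0.50, limma adjusted p 0.172), and for the interaction to Etv4 and Thbs2, with limma adjusted p of 0.735 and 0.738.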

How the data were processed

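The submitters named mm10 as the build in their processing notes. Per the labels' protocols, tumour RNA was extracted with an RNA kit of QIAGEN before Illumina library preparation. The authors deposited a score per gene, that is, normalized expression values rounded to whole numbers. Not given in the sources used here are the aligner, counting, strand use and normalization. Because the values are not counts, no count test was used, and counting intervals and floors cannot be given. Upper quartiles lay between 1905 and 1982.25, and column sums between 45310209 and 101121673.

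Within genotypes the deposited libraries vary in 7 directions in place of 8: the seventh singular value was 32.2 and the last 0.179 (9791 genes, mean 500 or more), and 47.2% of the missing direction's weight lay on double deficient 3. limma 3.58.1 in R 4.3.3 was therefore fitted to log2(value + 1) with 1 mean per genotype, all 12 libraries, the missing direction as a covariate, a trend in the prior variance and 7 residual degrees of freedom. Benjamini-Hochberg adjustment covered 21322 genes. The fit was also run on simulated data from which the same direction had been removed. Such a run cannot show how well the model suits the deposited values. 25 alternatives were run where they applied. With 1 library left out, the direction was still missing only without wt 3, miR-34a deficient 1 or p53 deficient 2. Fits without any other single library held no covariate for it. They therefore differ from the fit reported in the model as well as in the libraries.

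The genes, lists and comparisons were chosen with earlier results of these data known. Values in every library are given for members that changed, the TIMPs, a set of well-known members, and the 3 members with the smallest p in each comparison against wt; Mmp12, Mmp16, Mmp17, Mmp20 and 3 neutrophil markers were added after their values were seen. For the other lists the text names genes that changed or had the smallest p. Some results of these lists are not reported here. The replicate number was not taken as a pair, because only 4 of the 18 pairs that share one had correlated deviations (over 0.1), and 5 of the 12 libraries were nearest to a library of the same number.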

Additional observations from a re-analysis of the deposited data

How the results depend on the processing

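Over 45 gene results, 0 turned their direction under any alternative, 1043 outcomes stayed on their side of the threshold, 33 lost it and 19 gained it. The 45 were picked for a small p in these same data, so their steady direction says little. Only Adamts17, Cd44 and Etv4 passed in the fit reported, and all 33 losses were theirs. They passed in 11, 14 and 14 of 24 alternatives, and many of these passes came from fits without the covariate. Most of the 1043 were results that passed in neither fit. In double deficient against wt tumours 1 member changed without the covariate for the missing direction and 2 with only the groups compared (Mmp3 and Mmp7, adjusted p 0.0339 and 0.0489), against 0 in the fit reported; with 1 library left out the count was 0 to 1. In double against p53 deficient tumours it was 1 without the covariate and 0 to 2 with 1 library left out, and against miR-34a deficient tumours 0 to 1. For pooled miR-34a loss the leave-one-out range was 0 to 1. For pooled p53 loss the 1 changed member became 0 under median-of-ratios, upper-quartile and quantile scaling, without the filter, without the trend, with run code or the Y-linked level added to the fit, and 0 to 2 with 1 library left out. The causes were not tested.

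With the replicate number as a block, pooled p53 loss changed 0 members, the adjusted p of Adamts17 was 0.082, and the other comparisons kept 0 changed members.

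All genes changed numbered 57 with and 171 without the covariate in double deficient against wt tumours, 47 and 129 against p53 deficient, 57 and 193 against miR-34a deficient, 321 and 1076 for pooled p53 loss and 31 and 73 for pooled miR-34a loss. Members at an unadjusted p under 0.05 ranged over the alternatives from 5 to 11 in double deficient, 1 to 6 in p53 deficient and 1 to 7 in miR-34a deficient tumours against wt.

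Only 3 libraries per genotype, unknown depth, rounding of low values (Mmp1b, Mmp3, Mmp8, Timp4) and the missing direction limit these results. The second run code marked miR-34a deficient 1 and p53 deficient 1 alone, so comparisons within it could not be made. Without those 2 libraries members under the unadjusted threshold were 6 in p53 deficient and 6 in miR-34a deficient tumours against wt, 12 in double against p53 deficient tumours and 17 for pooled miR-34a loss. Over all genes, the number changed in double against p53 deficient tumours was then 120, against 47 with all 12 libraries.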
